A study of Polistes metricus with 16 samples.

Results

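The 200 transcript identifiers that varied most among wasps of the same group were examined in brains of the paper wasp Polistes metricus. They were chosen by their measured values. Each of the 127674 identifiers in the table was expressed as CPM, its count per 1000000 counts of the library, and taken as log2(CPM + 0.5). Identifiers were kept at a mean of at least 5 CPM and an absolute Pearson correlation under 0.6 with the identifier of highest summed count, which left 20272. Their variance was computed within each of the 4 groups of wasps and averaged, and the 200 with the highest mean variance are the members described here. The label of these transcripts therefore fitted by construction, and their spread is given as a description without a test. The table gives no gene name for any identifier and no reference was used here here, so no member is assigned a gene, a function or a cell type. For the same reason the labelled tissue could not be checked against marker genes of brain.

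The 16 wasps were adult females, and each library came from the brain of 1 wasp. In the 4 foundresses M1, M15, M4 and M5, collected in May, the trained stimuli were simple patterns, and in the 4 foundresses M30, M67, M79 and M91, collected in June, they were faces of the related species P. fuscatus. The 8 workers were also trained to P. fuscatus faces after at least a week on a nest other than their own. For MW21, MW25, MW40 and MW42 that nest was of their own species (conspecific), and for MW30, MW32, MW41 and MW47 it was a P. fuscatus nest (allospecific). All 16 wasps went through 40 trials in a negatively reinforced T-maze and were frozen 30 minutes after the last, so no untrained wasp was among them. MW21 was collected in June and the other workers in July. Among foundresses, stimulus and month cannot be told apart, and caste nearly follows the month too.

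Paper wasp foundresses start nests in spring and rear the first daughters, which work on the nest. The foundresses had been taken from nests in the field. Spread among animals of a group adds differences between the animals, differences in dissection and library making, and the error of counting reads, of which only the last can be computed from a count. Whole brains mix many cell types, so fewer cells of a type and less RNA per cell cannot be told apart. In assembled transcript sets 1 gene can be cut into several identifiers, so several members may stand for 1 gene.

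The members spread far more than the bulk of the identifiers that passed the filters, as the rule required. Their mean within-group variance ran from 0.870 to 8.53 with a median of 1.27, against a median of 0.0527 over all 20272 identifiers that passed the filters. The median standard deviation was 1.13 on the log2 scale, a 2.19-fold factor, against 0.23 or 1.17-fold for all. Of the members, 152 lay in the top 10% of variance in all 4 groups, 37 in 3 groups, 5 in 2 groups and 6 in 1 group. These 4 variances are the values that chose the members, so the counts only describe the choice.

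Counting error made up little of that spread. Library totals ran from 14949149 in MW40 to 22832434 in M5. The variance that Poisson counting alone would give was 0.836% of the observed variance for the median member and 2.72% for the highest, against a median of 12.7% over all identifiers that passed the filters. The variance that chose the members is the denominator here, so a share below that of all identifiers follows from the rule. These shares cover counting error only. Mean levels of the members ran from 5.19 to 400.3 CPM with a median of 13.8, close to the median of 14.3 for all. A mean of 100 CPM or more was reached by 18 members, 9% against 4.45% of all, and 70 members lay under 10 CPM, 35% against 33.9%. The median absolute correlation of a member's deviations from its group means with the library total was 0.218 over the 16 wasps, against 0.159 for all. The members held from 0.369% of all counts in MW47 to 1.09% in M1.

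**Figure D1:**
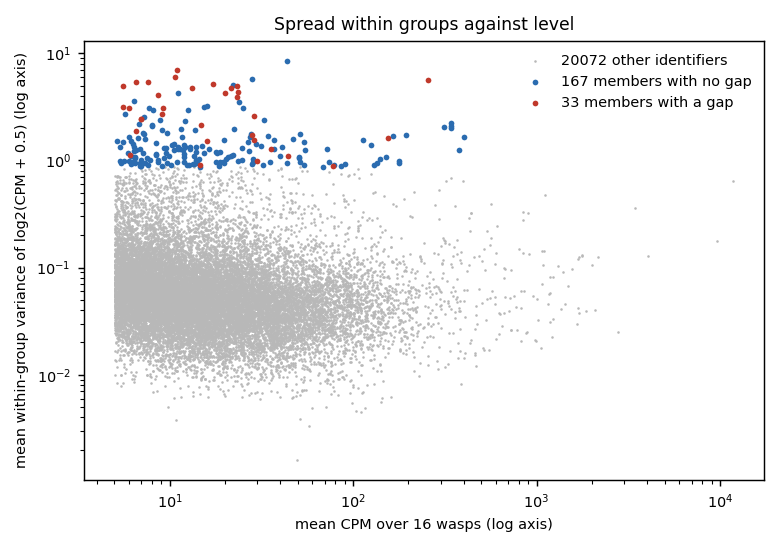
Mean within-group variance of log2(CPM + 0.5) against mean CPM over 16 wasps, both on log axes, for the 20272 identifiers that passed the filters; each point is 1 identifier. The 200 members, with variances from 0.870 to 8.53, lie above the other 20072, and the 33 of them with a 4-fold or larger gap between wasps are marked apart.

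The last members inside the limit were PmetTSAr2.0-055301, with a mean variance of 0.872, and PmetTSAr2.0-096613, with 0.870. The first identifiers outside it were PmetTSAr2.0-033703, with 0.869, and PmetTSAr2.0-056800, with 0.868. No step separated members from the identifiers next to them. PmetTSAr2.0-055301 owed its place to the foundresses, with a variance of 2.12 in those trained to faces and 0.996 in those trained to patterns. Its variance was 0.218 in workers from conspecific nests and 0.157 in those from allospecific nests. In the foundresses M30, M67, M79 and M91 this identifier had 22.3, 71.6, 6.83 and 10.2 CPM.

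Some members were close to absent in some wasps and plainly counted in others. A gap was defined as a distance of at least 2 on the log2 scale, that is 4-fold, between neighbouring values when the 16 wasps are put in order. Such a gap was found in 33 members, 16.5%, and in 37 of the 20272 identifiers that passed the filters, 0.183%. In 14 of these members a single wasp stood apart from the other 15, and in 19 the gap set 2 to 14 wasps above the rest. At least 1 wasp with 0 counts occurred in 12 members, and no other identifier that passed the filters had one. Gaps and 0 counts among wasps of a group raise the variance that chose the members, so these shares only describe the choice.

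PmetTSAr2.0-063262 had 0.0529, 24.5, 30.9 and 23 CPM in M1, M15, M4 and M5, the foundresses trained to patterns, and 0.0458, 39.4, 0.0502 and 32.4 CPM in M30, M67, M79 and M91, those trained to faces. In workers it had 0, 0, 0.0669 and 0 CPM in MW21, MW25, MW40 and MW42 from conspecific nests, and 0, 0.0587, 24.3 and 0 CPM in MW30, MW32, MW41 and MW47 from allospecific nests. In all, 6 wasps were high, and the other 10 had almost no reads of it. The high wasps were 3 of the 4 foundresses trained to patterns, M67 and M91 of those trained to faces, and MW41 alone among the 8 workers.

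The same 6 wasps were high for PmetTSAr2.0-063261, PmetTSAr2.0-081364 and PmetTSAr2.0-081365. In M15, M4, M5, M67, M91 and MW41 these 4 members lay between 11.4 and 39.4 CPM, and in the other 10 wasps none exceeded 0.264 CPM or 5 counts. Deviations of the 4 members from their group means correlated at 0.997 to 0.999 over the 16 wasps. The identifiers fall into 2 runs of neighbouring numbers, 063 and 081. Across the whole table, 10 identifiers showed the same division of the wasps with a gap, and the 6 that are not members had a mean too low for the filter of 5 CPM. The largest gap among all members with 4 to 12 high wasps was that of PmetTSAr2.0-063262, 5.38 on the log2 scale, followed by PmetTSAr2.0-063261 with 4.93.

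In M1, M15, M4 and M5, PmetTSAr2.0-083173 stood at 36.9, 35.1, 0.675 and 33.3 CPM, and in M30, M67, M79 and M91 at 0.596, 52.8, 50.8 and 64.8 CPM. Among workers, MW21, MW25, MW40 and MW42 had 28.9, 2.35, 52.8 and 6.97 CPM and MW30, MW32, MW41 and MW47 had 6.67, 32.5, 0.927 and 42.3 CPM. This member showed 3 bands. M4, M30 and MW41 were lowest, with at most 0.927 CPM, MW25, MW42 and MW30 lay between 2.35 and 6.97 CPM, and the other 10 wasps had 28.9 CPM or more.

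Its neighbours followed the same order. PmetTSAr2.0-083166, PmetTSAr2.0-083171 and PmetTSAr2.0-083174 were lowest in M4, M30 and MW41, and MW25, MW42 and MW30 came next in each of them. For PmetTSAr2.0-083174 these 3 intermediate wasps had 0.229, 0.157 and 0.195 CPM, so that only 2 bands were visible, and the other 10 wasps had 4.70 to 19.6 CPM. Deviations of the 4 members correlated at 0.913 to 0.994. Not all identifiers of the run shared the pattern. PmetTSAr2.0-083165, with a mean of 1.73 CPM and so below the filter, also had 0 counts in M4, M30 and MW41. PmetTSAr2.0-083163, which is no member, ran only from 20.5 to 33.6 CPM over the 16 wasps, and PmetTSAr2.0-083175 from 29.8 to 74.6 CPM. The member PmetTSAr2.0-083172 lies between them in number and did not follow them either. In MW41, M30 and M4, where the 4 others were nearly absent, it had 28.9, 19.5 and 0.90 CPM, its 2 highest values and its lowest. Of the identifiers in this run, only PmetTSAr2.0-083173 and PmetTSAr2.0-083174 were named by their rank, and the others after their values were seen.

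The level of PmetTSAr2.0-048784 was 114, 82.3, 74.8 and 0.307 CPM in M1, M15, M4 and M5, and 1.6, 51.9, 9.54 and 44.7 CPM in M30, M67, M79 and M91. The workers MW21, MW25, MW40 and MW42 had 0.375, 55.1, 41.9 and 2.31 CPM, and MW30, MW32, MW41 and MW47 had 68.6, 0.646, 24.8 and 128 CPM. This was the member of highest variance, 8.53. M5, M30, MW21, MW42 and MW32 had at most 2.31 CPM, M79 lay between, and the other 10 wasps had 24.8 CPM or more, with low wasps in each of the 4 groups.

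For PmetTSAr2.0-087510, the foundresses M1, M15, M4 and M5 had 353, 114, 257 and 8.63 CPM and M30, M67, M79 and M91 had 696, 198, 241 and 291 CPM. Its values were 9.33, 219, 221 and 484 CPM in MW21, MW25, MW40 and MW42, and 538, 10.7, 460.1 and 11.5 CPM in MW30, MW32, MW41 and MW47. M5, MW21, MW32 and MW47 had 8.63 to 11.5 CPM and the other 12 had 114 to 696 CPM. The gap was 3.26 on the log2 scale. M5, MW21 and MW32 were also low for PmetTSAr2.0-048784, while MW47 had the highest level of that identifier.

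Other members were high in very few wasps. PmetTSAr2.0-016603 had 0.211, 0, 0 and 0 CPM in M1, M15, M4 and M5, the foundresses trained to patterns, and 276, 0, 0 and 0 CPM in M30, M67, M79 and M91, those trained to faces. In workers it had 0.107, 0, 0 and 0 CPM in MW21, MW25, MW40 and MW42 from conspecific nests, and 0, 0, 0 and 0 CPM in MW30, MW32, MW41 and MW47 from allospecific nests. Apart from M30, 13 wasps had 0 counts and M1 and MW21 had 4 and 2 counts. PmetTSAr2.0-034197 and PmetTSAr2.0-083515 shared this division, with 138 and 85.7 CPM in M30 and at most 0.90 CPM elsewhere. Across the whole table, 14 identifiers had a gap that set M30 alone above the rest. These 3 members and those in the next 2 paragraphs were named after their values were seen.

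In M1, M15, M4 and M5, PmetTSAr2.0-034754 stood at 0.0529, 0, 0.0562 and 0 CPM, and in M30, M67, M79 and M91 at 55.4, 59.5, 0 and 29.7 CPM. Among workers, MW21, MW25, MW40 and MW42 had 0, 0.0572, 0 and 0 CPM and MW30, MW32, MW41 and MW47 had 0.0487, 0, 0 and 0 CPM. The high wasps were 3 of the 4 foundresses trained to faces, and M79, the remaining wasp of that group, had 0 counts. PmetTSAr2.0-025802 had 43.5, 41.2 and 27.4 CPM in M30, M67 and M91 and 0 counts in the other 13 wasps. Across the whole table, 10 identifiers divided the wasps in this way, with at most 1 count below the gap.

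The level of PmetTSAr2.0-030746 was 3.65, 13.3, 2.59 and 24.8 CPM in M1, M15, M4 and M5, and 8.8, 0.324, 0.201 and 5.44 CPM in M30, M67, M79 and M91. The workers MW21, MW25, MW40 and MW42 had 271, 5.78, 0.87 and 7.44 CPM, and MW30, MW32, MW41 and MW47 had 3.12, 20.7, 0.309 and 4.38 CPM. MW21 stood alone at more than 10 times the level of the next wasp, M5, while M67, M79 and MW41 had at most 0.324 CPM. For PmetTSAr2.0-085095, the foundresses M1, M15, M4 and M5 had 1.27, 1.65, 1.69 and 1.53 CPM and M30, M67, M79 and M91 had 23.2, 1.39, 23.6 and 1.33 CPM. Its values were 1.07, 2.29, 1.54 and 14.8 CPM in MW21, MW25, MW40 and MW42, and 18.1, 1.41, 1.73 and 14.2 CPM in MW30, MW32, MW41 and MW47. M30, M79, MW42, MW30 and MW47 were high, and they came from 3 of the 4 groups. PmetTSAr2.0-004078 had 8.3, 2.29, 5.96 and 0.0876 CPM in M1, M15, M4 and M5, the foundresses trained to patterns, and 14.4, 3.1, 149 and 16.4 CPM in M30, M67, M79 and M91, those trained to faces. In workers it had 1.5, 3.09, 8.09 and 86 CPM in MW21, MW25, MW40 and MW42 from conspecific nests, and 1.61, 17.8, 0.618 and 0.938 CPM in MW30, MW32, MW41 and MW47 from allospecific nests. M79 and MW42 were high, 1 from a foundress group and 1 from a worker group.

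**Figure D2:**
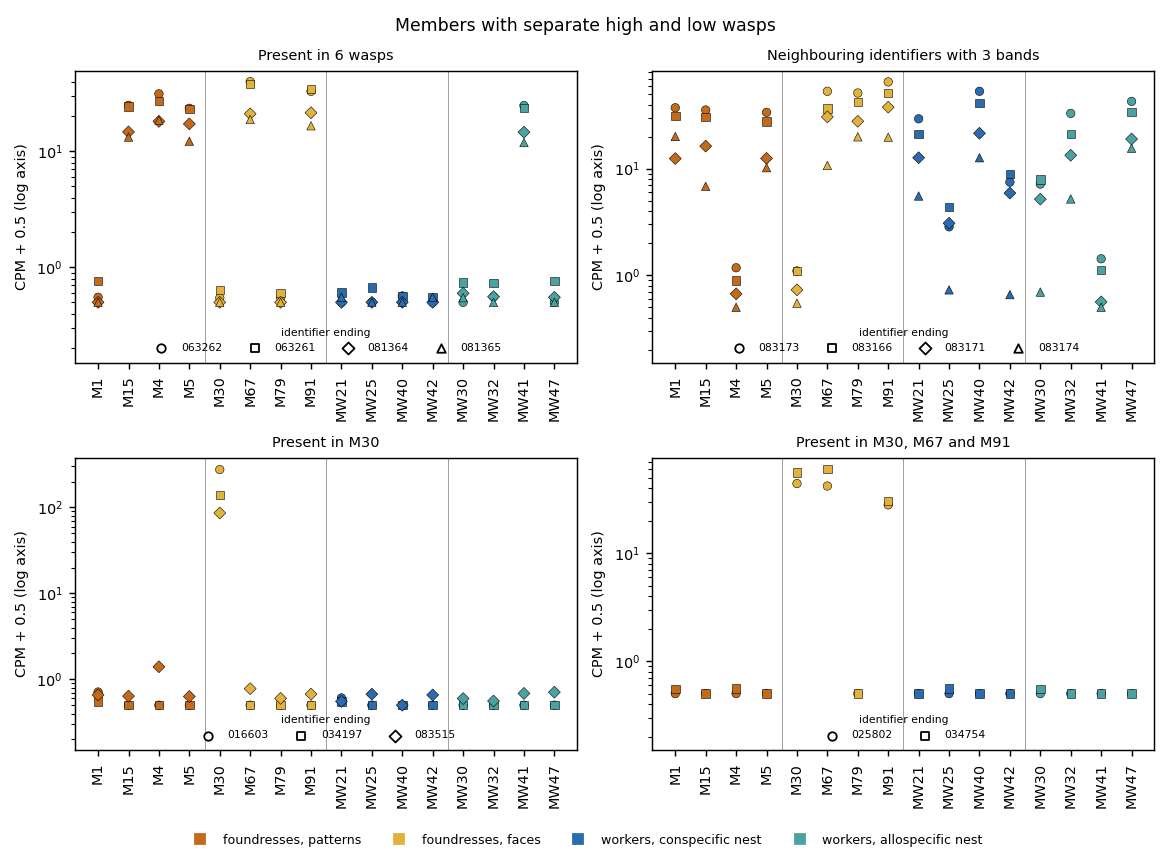
Levels of 13 members in each of the 16 wasps, as CPM + 0.5 on a log axis; colours mark the 4 groups, vertical lines part them, and symbols mark identifiers. In the upper left panel M15, M4, M5, M67, M91 and MW41 lie between 11.4 and 39.4 CPM and no other wasp exceeds 0.264 CPM; the upper right panel shows the members that were lowest in M4, M30 and MW41, and the lower panels those high in M30 alone and in M30, M67 and M91.

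The members did not vary independently of each other. Each member's log2 value minus the mean of its group was compared across the 16 wasps, and members were joined by average linkage at a Pearson correlation of 0.7. Of the 200 members, 122 fell into 8 sets of at least 5, with 37, 26, 25, 9, 8, 7, 5 and 5 members. The first 3 sets held 88 members. A further 55 members formed 22 groups of 2 to 4, and 23 stood alone. These correlations were computed from the values that chose the members, the points share the libraries, and no test was made. For each set the mean deviation of its members from the group means is called its score, in log2 units.

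**Figure D3:**
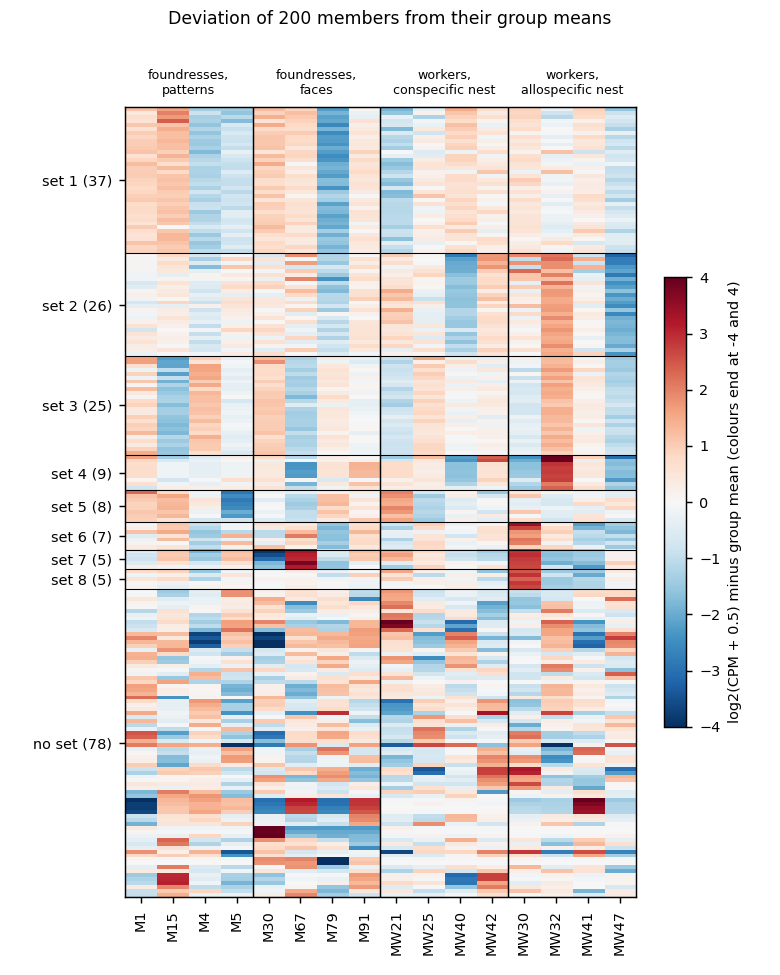
Deviation of each of the 200 members (rows) from its group mean in each of 16 wasps (columns), in log2(CPM + 0.5), red above and blue below; horizontal lines part the 8 co-varying sets and the 78 members in no set. Blocks of like colour run across all members of a set, as in MW32 and MW47 for set 2, and the rows in no set hold single wasps of strong colour.

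Set 1, of 37 members, was lowest in M79, with a score of -1.96, and low in M4 and MW21 with -1.21 and -1.12. M15, M30 and M1 were highest, with 1.18, 0.94 and 0.85. Its pairs of members correlated at a median of 0.90. In M1, M15, M4 and M5, PmetTSAr2.0-016756 stood at 254, 759, 104 and 62.1 CPM, and in M30, M67, M79 and M91 at 556, 684, 81.4 and 244 CPM. Among workers, MW21, MW25, MW40 and MW42 had 81.4, 265, 526 and 306 CPM and MW30, MW32, MW41 and MW47 had 960.2, 296, 931 and 294 CPM. This was the member of highest mean CPM. Its 4 lowest wasps were M5, M79, MW21 and M4, and MW30 and MW41 were highest.

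The level of PmetTSAr2.0-085415 was 89.8, 326, 24.8 and 17.6 CPM in M1, M15, M4 and M5, and 156, 199, 25 and 157 CPM in M30, M67, M79 and M91. The workers MW21, MW25, MW40 and MW42 had 49.5, 78, 142 and 93.9 CPM, and MW30, MW32, MW41 and MW47 had 167, 100.4, 125 and 64.2 CPM. Here too M5, M4, M79 and MW21 were the 4 lowest wasps. Set 1 followed a broader pattern of the brain profiles. Its score correlated at 0.92 over the 16 wasps with the first principal component of the deviations of the 20072 other identifiers that passed the filters, which held 29.3% of their squared deviations. Of these others, 1852 correlated with the score at 0.7 or more and 532 at -0.7 or less. The set and the component come from the same libraries, so this is a description.

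Set 2, of 26 members, was highest in MW32, with a score of 1.67, and lowest in MW47 and MW40 with -2.15 and -1.54. M79 followed with -1.07. Its spread was wider in workers, where the median member had a variance of 1.20 in the conspecific and 2.53 in the allospecific group, than in foundresses trained to patterns, where it was 0.277. For PmetTSAr2.0-086510, the foundresses M1, M15, M4 and M5 had 90.4, 132, 76.6 and 99.2 CPM and M30, M67, M79 and M91 had 72.7, 159.6, 37.1 and 84.7 CPM. Its values were 145, 173, 29 and 222 CPM in MW21, MW25, MW40 and MW42, and 1101, 529, 85.9 and 52.8 CPM in MW30, MW32, MW41 and MW47. This member was highest in MW30 and next in MW32, and lowest in MW40 and M79. PmetTSAr2.0-035869 had 299.7, 234, 102 and 235 CPM in M1, M15, M4 and M5, the foundresses trained to patterns, and 262, 134, 108 and 252 CPM in M30, M67, M79 and M91, those trained to faces. In workers it had 179, 174, 43.7 and 189.9 CPM in MW21, MW25, MW40 and MW42 from conspecific nests, and 136, 353, 125 and 32.1 CPM in MW30, MW32, MW41 and MW47 from allospecific nests. For it MW47 and MW40 were lowest and MW32 highest.

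The score of set 2 correlated at 0.68 with the second principal component, which held 15% of the squared deviations, and at 0.15 with the first. Fewer other identifiers moved with it than with set 1, 135 at a correlation of 0.7 or more and 278 at -0.7 or less.

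Set 3, of 25 members, was the most coherent of the large sets, with a median correlation of 0.93 between members and none under 0.66. MW32, M4 and M30 were highest, with scores of 1.33, 1.13 and 0.99, and M15, M67 and MW47 were lowest, with -1.56, -1.22 and -1.10. In M1, M15, M4 and M5, PmetTSAr2.0-015123 stood at 64.2, 25.8, 178 and 47.7 CPM, and in M30, M67, M79 and M91 at 201, 48.2, 180.0 and 133 CPM. Among workers, MW21, MW25, MW40 and MW42 had 83.6, 209, 112 and 160.1 CPM and MW30, MW32, MW41 and MW47 had 88.3, 466, 191 and 64.7 CPM. MW32 had the highest level and M15 the lowest. PmetTSAr2.0-015124, the next identifier in number, ran from 25.6 CPM in M15 to 395 CPM in MW32. Set 3 scores correlated at -0.05 and -0.10 with the first and second components and at -0.47 with the library total, and the part of sequencing depth in this set was not tested.

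Set 4, of 9 members, was highest in MW32, with a score of 2.99, and lowest in MW47, MW40, MW30 and M67, with -1.83, -1.58, -1.54 and -1.45. The level of PmetTSAr2.0-080779 was 1073, 599.8, 531 and 596 CPM in M1, M15, M4 and M5, and 440.2, 99.6, 480.0 and 795 CPM in M30, M67, M79 and M91. The workers MW21, MW25, MW40 and MW42 had 228, 180.2, 66.7 and 207 CPM, and MW30, MW32, MW41 and MW47 had 53, 509, 153 and 51.8 CPM. The levels divided the wasps by caste as well as within groups. All 8 foundresses except M67 lay at 440.2 CPM or above, and all 8 workers except MW32 at 228 CPM or below.

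PmetTSAr2.0-080779, PmetTSAr2.0-080787, PmetTSAr2.0-080788, PmetTSAr2.0-080795 and PmetTSAr2.0-080799 behaved as a block, with correlations of 0.997 to 1.00 between their deviations. For PmetTSAr2.0-080787 the levels ran from 21.7 CPM in MW30 to 1044 CPM in M1. The same set held PmetTSAr2.0-118319, chosen after its values were seen. For PmetTSAr2.0-118319, the foundresses M1, M15, M4 and M5 had 9.25, 0.734, 1.8 and 3.28 CPM and M30, M67, M79 and M91 had 1.24, 0, 0.803 and 0.578 CPM. Its values were 8.47, 54.6, 4.75 and 129 CPM in MW21, MW25, MW40 and MW42, and 0.487, 123, 9.64 and 0.156 CPM in MW30, MW32, MW41 and MW47. MW42, MW32 and MW25 were high, and M67 had 0 counts. The score of set 4 correlated at 0.66 with that of set 2 and at 0.62 with that of set 3.

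For the smaller sets, only the wasps with the most extreme scores are given. Set 5, of 8 members, was highest in MW21, with a score of 1.66, and lowest in M5 with -2.30. Its median member had a variance of 3.19 in foundresses trained to patterns and 0.428 in workers from allospecific nests. Set 6, of 7 members, was highest in MW30 with 2.09 and lowest in M79 with -1.61, and its score correlated at 0.65 with that of set 1.

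Set 7, of 5 members, had the widest range, from 3.26 in M67 and 2.80 in MW30 to -2.78 in M30. PmetTSAr2.0-042490 had 6.5, 5.18, 4.61 and 6.44 CPM in M1, M15, M4 and M5, the foundresses trained to patterns, and 6.64, 192, 6.73 and 21.1 CPM in M30, M67, M79 and M91, those trained to faces. In workers it had 0.858, 6.01, 2.94 and 4.61 CPM in MW21, MW25, MW40 and MW42 from conspecific nests, and 153, 13.9, 4.51 and 29 CPM in MW30, MW32, MW41 and MW47 from allospecific nests. M67 and MW30 were high for each of the 5 members. PmetTSAr2.0-035800, PmetTSAr2.0-035801 and PmetTSAr2.0-035802, which have consecutive numbers, all lay between 118 and 149 CPM in M67 and MW30 and between 0.367 and 1.24 CPM in M30.

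Set 8, of 5 members, was led by MW30, with a score of 2.64. In M1, M15, M4 and M5, PmetTSAr2.0-024095 stood at 50.1, 34.9, 49.8 and 47.8 CPM, and in M30, M67, M79 and M91 at 51, 62.2, 49.8 and 45.2 CPM. Among workers, MW21, MW25, MW40 and MW42 had 34.5, 37.4, 43.9 and 31.8 CPM and MW30, MW32, MW41 and MW47 had 551, 34.4, 37.6 and 79.1 CPM. MW30 had 551 CPM and the other 15 wasps at most 79.1 CPM. The scores of sets 7 and 8 correlated at 0.67, with MW30 high in both, and that of set 7 at -0.70 with set 3. Members of sets 7 and 8 named here were chosen after their values were seen.

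**Figure D4:**
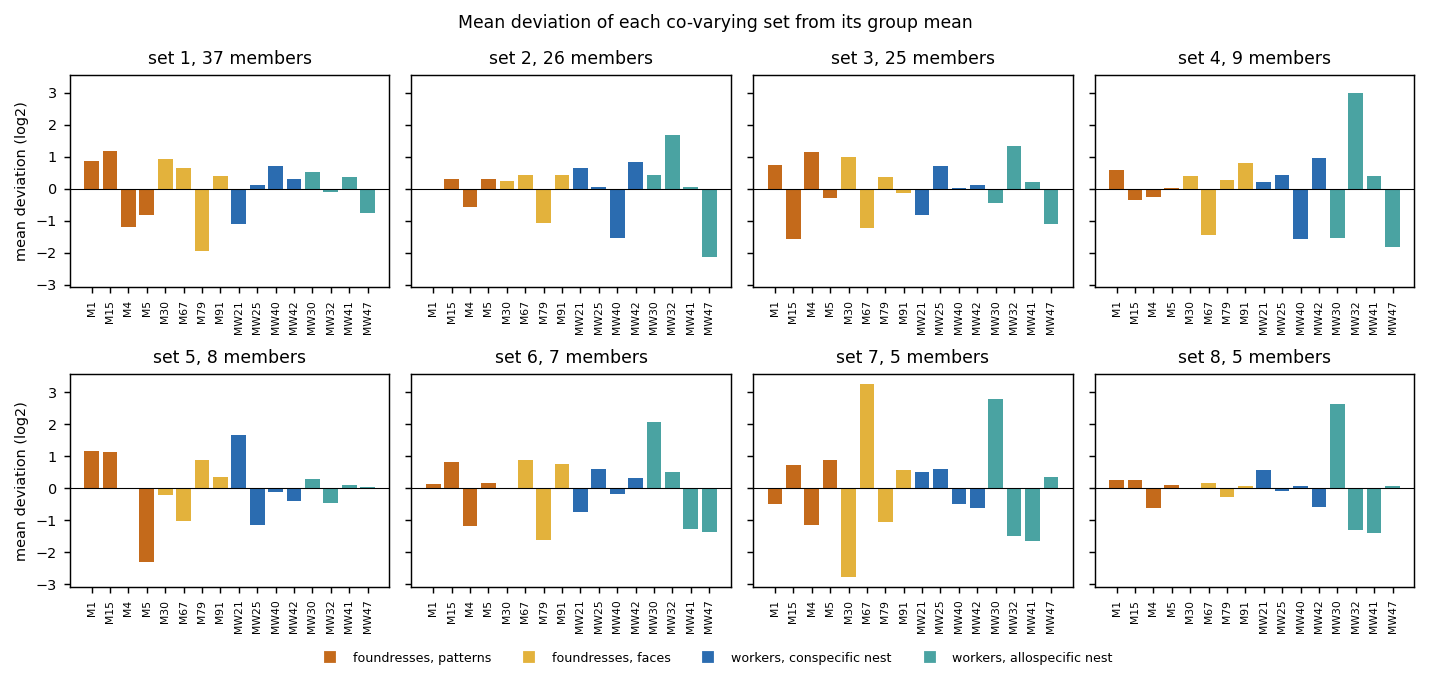
Score of each of the 8 co-varying sets in each of the 16 wasps, as bars from 0 in log2 units; colours mark the 4 groups. Set 1 is lowest in M79 at -1.96, set 2 in MW47 at -2.15 and set 3 in M15 at -1.56, and sets 7 and 8 reach 2.80 and 2.64 in MW30.

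Members often had neighbouring identifiers. Of 129 places next to a member that were held by an identifier past the filters, 62 were members too, 48.1%, against 0.987% members among all that passed. The 31 neighbouring pairs of members had a median correlation of 0.99, against 0.68 over the 8401 neighbouring pairs of all identifiers that passed, and 25 of them correlated above 0.9. The lowest was -0.05. These correlations use the deviations that chose the members, in which counting error is a smaller share by the rule. Nothing is read from the distance of these correlations, or of the share of neighbours, to those of all identifiers. A second member within 10 identifiers was found for 85 members. Whether neighbouring members belong to 1 gene was not tested, so counts of members are not counts of genes.

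Deviations of the members were spread over all wasps but unevenly. M30 held 9.63% of the summed squared deviations of the members, M79 9.11% and MW32 8.48%, while MW25 held 3.35%. Over all 20272 identifiers, M79 and MW21 led with 10.8% and 9.25%, and M30 held 9.23%, close to its share over the members. MW32 had the highest level of 54 members and M30 of 36, whereas M79 had the lowest level of 35 and M15 of 31. Such counts were not made over all identifiers, and members of a set count together, so nothing is read from them. The 2 orders of wasps by share differ in part, since MW32 held 8.48% over the members and 6.32% over all identifiers.

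For 10 members, 5%, a single wasp held at least 50% of the squared deviations, against 1.37% of all identifiers that passed. The wasp was M30 for 3 of them, M79, MW30 and MW47 for 2 each, and M91 for 1. For the median member the leading wasp held 27.7%, close to 26.4% over all identifiers. A wasp that stands apart also moves the mean of its group, so these shares do not count the wasps that stood apart. Of a member's squared deviations from its overall mean, a median of 81% lay within groups, against 75.3% for all, and the share ran from 31.0% to 99.9%. The shares in this paragraph come from the deviations within groups that chose the members, so nothing is read from their distance to those of all identifiers.

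Levels were then compared between groups, to ask whether these transcripts also differ with the trained stimulus, the host nest or the caste. All identifiers were tested together with edgeR's quasi-likelihood F test, a model of counts, at an adjusted p under 0.05. The spread within groups that chose the members enters this test as its error, and the coefficient of biological variation was 73.8% for the median member against 19.0% for all. Of the 200 members, 195 were among the 55226 identifiers tested. The 5 others, which were high in M30 alone or in M30, M67 and M91, had too low counts in too many wasps for the filter.

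No member was called in any of the 5 comparisons by edgeR with all 16 wasps. With 1 wasp left out, between 0 and 5 members were called in a comparison. The 5 without MW30, for workers minus foundresses trained to faces, were 2.54% of the members tested against 4.99% of all identifiers. They include PmetTSAr2.0-034754, which passed the filter there only through M30, M67 and M91, where it is high. Its call is no support for a difference. The 5 without MW32, for workers minus all foundresses, were 2.54% against 2.72% of all. Between foundresses trained to faces and to patterns, 0 members and 0% of all identifiers were called, and 10 members had an unadjusted p under 0.05, 5.13% against 10.3% of all. Between workers from allospecific and conspecific nests, 0 members and 0% of all were called, and 18 members had an unadjusted p under 0.05, 9.23% against 2.29%. DESeq2 called 1 member for the stimuli, 0.513% of members against 0.245% of all, and 1 for the nests, 0.513% against 0.000789%, where that member was its only call. Limma-voom called 0 members and 0% of all in both. The DESeq2 call for the stimuli was PmetTSAr2.0-034754, high in M30, M67 and M91 alone and left out by the filter used with edgeR. Its call for the nests was PmetTSAr2.0-081364, which had 0 CPM in every worker from conspecific nests. Among workers from allospecific nests it had 14.1 CPM in MW41 and at most 0.0974 CPM in the others, so that call rested on MW41.

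Between workers and foundresses trained to faces, edgeR called 3.73% of all identifiers and 0 members, and 23 members had an unadjusted p under 0.05, 11.8% against 19.9%. DESeq2 called 10 members there, 5.13% against 7.23% of all, and limma-voom 4, 2.05% against 3.43%. The 10 include PmetTSAr2.0-025802 and PmetTSAr2.0-034754, both high only in M30, M67 and M91 and left out by the filter used with edgeR. Their calls are no support for a difference. Between workers and all foundresses, edgeR called 3.68% of all and 0 members, and 25 members had an unadjusted p under 0.05, 12.8% against 20%. In that comparison DESeq2 called 13 members, 6.67% against 5.37% of all, and limma-voom 7, 3.59% against 3.62%. For any difference among the 4 groups the calls were 0.978% of all and 0 members, with 17 members under 0.05 unadjusted, 8.72% against 15.5%. DESeq2 called 8 members for it, 4.1% against 4.08% of all, and limma-voom 1, 0.513% against 0.905%. PmetTSAr2.0-034754 is also among the 13 and the 8 called by DESeq2, and its calls there are no support either. These comparisons share wasps and are not independent of each other.

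The size of the differences between group means was also computed. The median absolute log2 difference was 0.68 against 0.19 for foundresses trained to faces minus patterns, 0.45 against 0.13 for allospecific minus conspecific nests, 0.51 against 0.20 for workers minus foundresses trained to faces, and 0.42 against 0.16 for workers minus all foundresses, each for members against all identifiers tested. Members chosen for a wide spread within groups have wide differences between means of 4 wasps by that alone, so nothing is read from these sizes.

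Some members with a low adjusted p are given with their values, and were chosen after these were seen. The level of PmetTSAr2.0-086031 was 23.1, 5.23, 7.25 and 4.73 CPM in M1, M15, M4 and M5, and 6.78, 37.9, 36 and 29.9 CPM in M30, M67, M79 and M91. The workers MW21, MW25, MW40 and MW42 had 2.15, 11.1, 5.55 and 5.03 CPM, and MW30, MW32, MW41 and MW47 had 13.6, 3.99, 4.26 and 6.93 CPM. M67, M79, M91 and M1 were high, and M30 lay among the workers. Its level was 27.6 ± 14.3 CPM (SD, n = 4) in foundresses trained to faces, 5.96 ± 3.74 CPM (SD, n = 4) in workers placed on conspecific nests and 7.19 ± 4.47 CPM (SD, n = 4) in those on allospecific nests. The log2 difference of workers minus foundresses trained to faces was -2.10 (SE 0.55), and its edgeR adjusted p of 0.0548 was the lowest of any member.

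For PmetTSAr2.0-084566, the foundresses M1, M15, M4 and M5 had 8.19, 13.4, 4.33 and 15.6 CPM and M30, M67, M79 and M91 had 14.3, 8.1, 11 and 13.5 CPM. Its values were 9.66, 0.629, 3.68 and 0.262 CPM in MW21, MW25, MW40 and MW42, and 3.26, 2.88, 1.73 and 2.19 CPM in MW30, MW32, MW41 and MW47. All 8 foundresses lay above every worker except MW21, which lay above M1, M4 and M67. The log2 difference of workers minus all foundresses was -1.88 (SE 0.55), and edgeR gave an adjusted p of 0.0775. The lowest adjusted p of a member in this comparison was 0.0655 by edgeR, for PmetTSAr2.0-091315 of set 4, with a log2 difference of 4.16 (SE 1.14). PmetTSAr2.0-091315 had 2.75, 0.688, 1.01 and 1.4 CPM in M1, M15, M4 and M5, the foundresses trained to patterns, and 0.412, 0.555, 0.753 and 0.752 CPM in M30, M67, M79 and M91, those trained to faces. In workers it had 4.72, 11.7, 1.27 and 55.4 CPM in MW21, MW25, MW40 and MW42 from conspecific nests, and 0.487, 60.9, 2.72 and 0.729 CPM in MW30, MW32, MW41 and MW47 from allospecific nests. MW32, MW42 and MW25 were high, MW21 also lay above every foundress, and the other 4 workers overlapped the foundresses. PmetTSAr2.0-118319, described with set 4, gave 4.64 (SE 1.28) and an adjusted p of 0.0669, and its worker values overlapped those of foundresses too. For PmetTSAr2.0-080779, also of set 4, workers minus all foundresses gave -1.65 (SE 0.56) and an adjusted p of 0.122, with MW32 and M67 crossing between the castes.

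Between the foundress groups, the lowest adjusted p among members was 0.335, for PmetTSAr2.0-085937. In M1, M15, M4 and M5, PmetTSAr2.0-085937 stood at 2.59, 26.6, 31 and 2.28 CPM, and in M30, M67, M79 and M91 at 1.6, 3.05, 3.61 and 1.91 CPM. Among workers, MW21, MW25, MW40 and MW42 had 1.45, 2.06, 5.22 and 2.57 CPM and MW30, MW32, MW41 and MW47 had 2.73, 3.58, 4.57 and 2.4 CPM. M15 and M4 alone were high, so the difference of faces minus patterns, -2.63 (SE 0.74), rested on 2 of the 4 foundresses trained to patterns. Between the nests, the lowest adjusted p among members was 1.00. In PmetTSAr2.0-010585, of set 8, the conspecific group lay at 2.17 to 7.51 CPM and the allospecific group at 4.45 to 146 CPM, with a log2 difference of 2.95 (SE 0.95) and ranges that overlapped. MW30 alone had 146 CPM and held 48.8% of its squared deviations, while MW32, MW41 and MW47 had 10.9, 4.45 and 18.5 CPM.

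**Figure D5:**
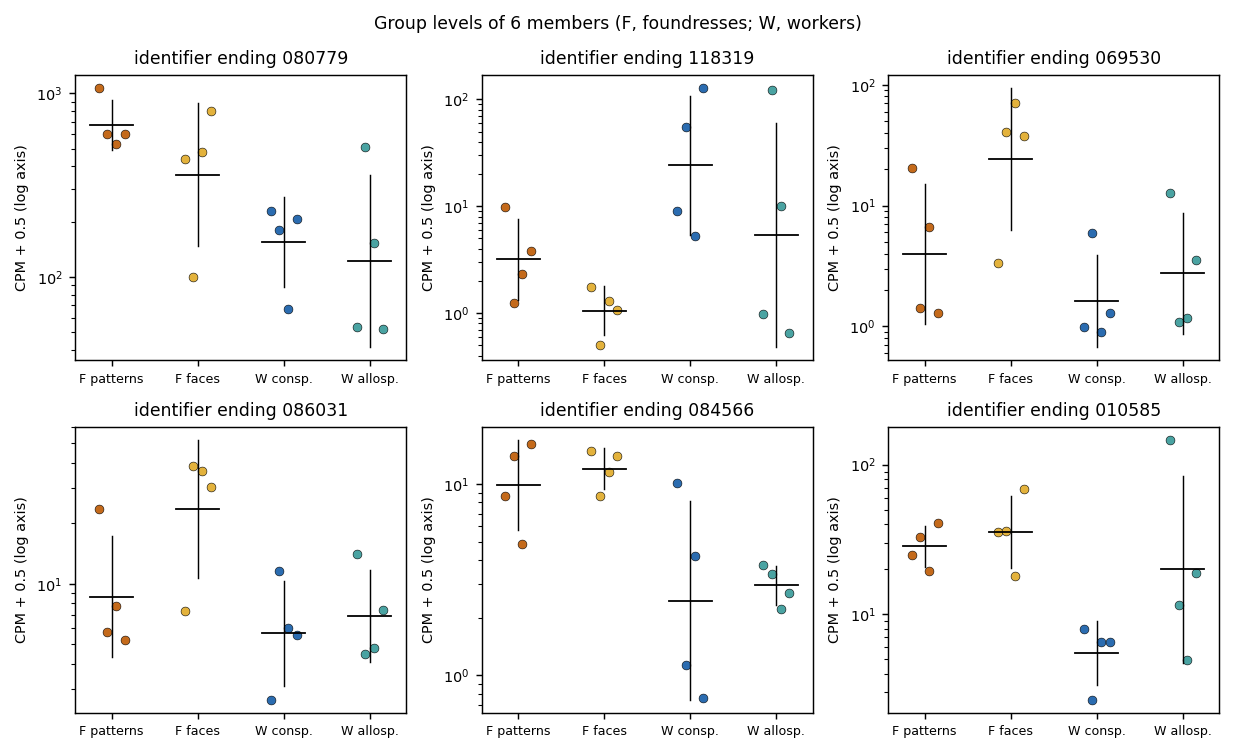
Levels of 6 members by group, as CPM + 0.5 on a log axis; each point is 1 wasp, horizontal bars are means and vertical bars 1 SD of the log2 values (n = 4). For each of the 6, at least 1 wasp lies among the values of another caste or group, as M67 and MW32 do for the member ending 080779.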

How the data were processed

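Brain RNA of 16 wasps was sequenced, 1 library per wasp, with 4 wasps in each of 4 groups, from total RNA of single brains (1 µg per library, TruSeq kit, per the labels' protocols). The counts came as 1 deposited table of whole numbers for 127674 transcript identifiers, without normalization. Per the submitters' processing notes, Trimmomatic 0.32, Bowtie2 and eXpress were used. Their options, and whether the numbers are rounded estimates, were not stated there. Reads shared by near-identical transcripts may have been split between identifiers, and whether strand was kept is not given either. Columns were joined to groups by the wasp name in the column and the title, and 0 columns belonged to no sample. Totals ran from 14949149 to 22832434, so Poisson error was small beside the spread of the members. The 24 pairs of libraries within groups had a chi-square over its degrees of freedom of 7.14 to 55.2, so none was a duplicate. Over the 96 pairs between groups it ran from 5.97, for MW42 and MW32, to 68.6.

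Members were chosen from log2(CPM + 0.5) as described above. The members, gene lists and tests were chosen with earlier results of these data known. Deviations from group means were clustered by average linkage on 1 minus Pearson r and cut at 0.7, with sets of at least 5. Comparisons used edgeR 4.0.16 (quasi-likelihood F test, robust, TMM factors 0.853 to 1.08, filterByExpr with a minimum count of 10) in R 4.3.3. All 16 libraries entered 1 fit (residual df 12), with Benjamini-Hochberg adjustment over 55226 identifiers. A standard error is the size of the log2 difference over the root of F. Alternatives were DESeq2 1.42.0, its size factors within edgeR, no filter, limma 3.58.1 voom, leaving out each wasp, and other settings of the choice of members, sets and gaps. The procedures were tested on simulated data.

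Identifiers were named by rule as the 6 members of highest variance, the 2 of highest mean CPM in each of the 4 largest sets, the member of highest mean CPM, the called members of lowest p, the 2 identifiers on each side of the limit, and the 2 members with the largest gap among those with 4 to 12 wasps above it. No member was called, so that part named none. Other identifiers in the text were chosen after their values were seen. No gene names, sequences or gene sets were used here.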

Additional observations from a re-analysis of the deposited data

Results flagged for a closer look

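In groups of 4 wasps, a wasp was singled out where its distance to the nearest of the others exceeded Dixon's limit as a share of the group's range. Of 108 groups of values examined, 12 were singled out. Chance gives about 1 in 20, and the members were chosen for their spread, so no excess is read from this. All values are log2(CPM + 0.5).

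For PmetTSAr2.0-063262, M1 lay at -0.85 against 4.56 to 4.97 in the other foundresses trained to patterns, and MW41 at 4.63 against -1 to -0.84 in the other workers from allospecific nests. MW40 lay at -0.82, where its 3 group mates had 0 counts, which is a difference of 1 count. PmetTSAr2.0-063261 set the same wasps apart, M1 at -0.39 against 4.54 to 4.76 and MW41 at 4.57 against -0.44 to -0.40. For PmetTSAr2.0-083173, M4 lay at 0.23 against 5.08 to 5.22, and M30 at 0.13 against 5.68 to 6.03. For PmetTSAr2.0-048784, M5 lay at -0.31 against 6.23 to 6.84.

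In set 2, M79 had a mean of 2.75 against 4.06 to 4.23 in the other foundresses trained to faces. PmetTSAr2.0-085415 had 4.68 in M79 against 7.29 to 7.64. MW40 was low for PmetTSAr2.0-035869, at 5.47 against 7.45 to 7.57, and for PmetTSAr2.0-080787, at 5.22 against 7.19 to 7.59. What set these wasps apart was not tested.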

How the results depend on the processing

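The choice of members depended most on the level filter. Of the 200 members, 103 remained among the top 200 with a minimum of 1 CPM, 130 with 10 CPM and 99 with none. Under the other 8 settings tried 155 to 194 remained, and 169 to 191 when a wasp was left out. A gap was found in 52 members at a limit of 1.5 and in 13 at 3, and 21 members were led by 1 wasp at a share of 0.4. The number of members in sets stayed within 1.5 times of 122 under all settings run, and leaving out a wasp gave 112 to 131.

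Calls of members changed from 0 with the tool. DESeq2 called 1 member for faces minus patterns, 1 for the nests, 10 for workers minus foundresses trained to faces, 13 for workers minus all foundresses and 8 for any difference, when it called 0.245%, 0.000789%, 7.23%, 5.37% and 4.08% of all identifiers. Limma-voom called 4, 7 and 1 members in the last 3, with 3.43%, 3.62% and 0.905% of all. The DESeq2 calls include PmetTSAr2.0-034754 in each comparison but that of the nests, and PmetTSAr2.0-025802 among the 10. Both are high only in M30, M67 and M91, so these calls are no support for a difference. Without the filter, edgeR called 2 for workers minus foundresses trained to faces and 1 for any difference, with 1.69% and 1.16% of all. The 2 were PmetTSAr2.0-034754 and PmetTSAr2.0-083515, which is high in M30 alone, and the 1 was PmetTSAr2.0-034754. Leaving out a wasp gave 0 to 2, 0 to 0, 0 to 5, 0 to 5 and 0 to 2 calls in the 5 comparisons. PmetTSAr2.0-034754, high in M30, M67 and M91, failed the filter with all wasps. It passed through the 3 wasps where it is high once another wasp was left out, because the smallest group then has 3, and its calls in those 13 fits are no support for a difference. The highest counts came without MW30, with 5 calls for workers minus foundresses trained to faces (4.99% of all called) and 3 for workers minus all foundresses (4.18%), and without MW32, with 5 in the latter (2.72%), all of the block that holds PmetTSAr2.0-080779. Without M79, 2 members were called for faces minus patterns (0.0196% of all), PmetTSAr2.0-034754 and PmetTSAr2.0-025802. Both passed the filter only through M30, M67 and M91, where they are high. Their calls are no support for a difference. Without MW41 or MW21, 2 were called for workers minus all foundresses (1.91% and 3.29%). Without M1 or MW21, 3 were called for workers minus foundresses trained to faces (3.25% and 2.54%), and 2 without M79 or MW47 (4.01% and 2.54%). The 2 for workers minus all foundresses were PmetTSAr2.0-063261 and PmetTSAr2.0-063262 without MW41, and PmetTSAr2.0-084566 and PmetTSAr2.0-084570 without MW21. PmetTSAr2.0-034754 is among the calls in each of these counts for workers minus foundresses trained to faces, and among the 5 without MW30. The other call without M79 is PmetTSAr2.0-025802.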
